A study of Caenorhabditis elegans with 2 samples.

Results

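Spliceosome protein genes were examined for binding by SNPC-4, the subunit that contacts DNA in SNAPc, the complex that activates small nuclear RNA genes, in whole young adult Caenorhabditis elegans. The genes were the protein-coding genes of the WBcel235 annotation whose symbols begin with snr-, uaf-, prp-, rnp-, sap- or lsm-, which gave 40 of the 19973 protein-coding genes on the 6 nuclear chromosomes. They comprised 7 snr-, 2 uaf-, 13 prp-, 9 rnp-, 2 sap- and 7 lsm- genes. The prefix rule is a rule on names. It takes in lsm-1, whose product belongs to the cytoplasmic ring that acts in mRNA decay, rnp-4, whose product is a subunit of the exon junction complex, and rnp-8, whose product is a partner of the poly(A) polymerase GLD-2. Some further rnp- genes encode RNA-binding proteins that are not established spliceosome subunits.

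The animals were of strain OP179, in which an integrated transgene array, wgIs179, supplies eGFP-tagged SNPC-4 in a background carrying the unc-119 allele ed3 on chromosome III. Both sexes were pooled, the age in hours is not given, and there were 2 biological replicates in 1 group. Fragments of 150 to 350 bp were made into libraries. Chromatin bound to the tagged protein was precipitated and sequenced (ChIP-seq). The promoter that drives the transgene is not given in the sources used here, whole animals resolve no cell types, and no unmodified or mock-precipitated group was analysed here.

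The spliceosome is built from small nuclear ribonucleoproteins (snRNPs), in which a U-series small nuclear RNA (snRNA) is held by a ring of Sm proteins, or of LSM proteins on U6, and by proteins specific to each particle. SNAPc is known for binding the promoters of the snRNA genes themselves, where it recruits RNA polymerase II or III, and in C. elegans SNPC-4 is also known for its role at the genes of Piwi-interacting RNAs, called 21U-RNAs. The genes described here encode the protein side of the snRNPs and the factors that work on them, and they are transcribed as mRNAs.

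A peak here is any entry of these lists, a stretch of genome with a summit at its highest point. Its signal value was given by the authors' peak caller. The optimal list, kept by the authors after a reproducibility filter, held 1781 peaks, with signal from 31.1 to 1801 and a median of 42.6. The relaxed lists had 30000 peaks for the pooled reads, 20730 for replicate 1 and 30000 for replicate 2. They hold weak peaks as well, and the pooled one is labelled as holding background too. A weak entry there need not be enrichment over the control. All 1781 optimal peaks were also the 1781 strongest peaks of the pooled list. The replicate 1 list was thus the shorter one. The pooled and replicate 2 lists end at exactly 30000 peaks, with lowest signals of 3.16 and 2.59. A gene missing from them may still have a weaker summit that was not listed. Signal is scaled within each list, so lists are compared by rank, in which rank 1 is the strongest peak. Offsets are distances from the annotated 5′ end of a gene to the summit, negative upstream on the gene's strand. With 1 group of 2 replicates no test between samples was possible, and the counts below are a description.

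Of the 40 spliceosome protein genes, 14 (35.0%) had an optimal summit within 500 bp of their 5′ end. The background share over all protein-coding genes by the same rule was 5.67%, that is 1132 of 19973 genes. Every prefix was represented. The genes were snr-1, snr-3 and snr-4 among the Sm proteins, uaf-2 for U2AF, prp-8, prp-9, prp-18, prp-31 and prp-40, sap-140, rnp-2 and rnp-6, and lsm-1 and lsm-7. Each of the 14 summits belonged to a distinct peak.

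The DNA at 7 of these summits is shown. The first 6 were chosen because they hold short words that also occur at SNPC-4 summits of other protein-coding genes, and snr-4 because its summit lies at an snRNA gene. The words were not found at 6 further protein-coding promoter summits, which are not printed, nor at snr-4. For the first 6, capitals mark the matches to the 8-base words described further on, written 5′ to 3′ on the strand of the named gene. For snr-4, the stretch is the 90 bases before the snRNA gene C52E4.8 on the plus strand, which is the strand of the snRNA gene and not of snr-4, and capitals mark the 11 bases centred on the summit. All sequences are reference genome sequence of WBcel235 (ce11) from RefSeq.
snr-1 (chrIV:17087596-17087683, plus strand): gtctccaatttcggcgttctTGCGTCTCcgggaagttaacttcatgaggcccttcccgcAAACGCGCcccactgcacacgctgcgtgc
snr-3 (chrII:6489956-6490006, minus strand): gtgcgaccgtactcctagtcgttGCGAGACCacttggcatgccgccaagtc
lsm-7 (chrIV:10933218-10933286, plus strand): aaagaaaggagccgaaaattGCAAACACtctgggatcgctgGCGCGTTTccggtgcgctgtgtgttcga
prp-18 (chrIV:9884409-9884478, minus strand): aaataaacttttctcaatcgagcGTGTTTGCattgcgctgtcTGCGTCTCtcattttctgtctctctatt
sap-140 (chrIII:7499634-7499689, plus strand): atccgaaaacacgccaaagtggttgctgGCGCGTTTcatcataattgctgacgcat
uaf-2 (chrIV:17118768-17118836, minus strand): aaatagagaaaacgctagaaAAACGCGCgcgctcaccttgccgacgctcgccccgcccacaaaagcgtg
snr-4 (chrV:11980028-11980117, plus strand): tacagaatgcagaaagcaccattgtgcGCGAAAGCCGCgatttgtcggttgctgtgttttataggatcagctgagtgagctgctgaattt

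Among the Sm protein genes, whose products form the ring around most spliceosomal snRNAs, 3 of 7 had an optimal summit, and snr-4 and snr-1 had the highest signals of the 14 genes. The highest of all stood at snr-4 (chrV:11978508-11979723, minus strand), which encodes SmD2. Its optimal signal was 778, rank 17 of 1781, at an offset of −337 bp. In the replicates its signal was 256 in replicate 1 (rank 16) and 531 in replicate 2 (rank 17), with summits 6 bp apart. The gene therefore kept nearly the same rank in both replicates and in the pooled reads. Which gene this peak belongs to was not tested. Its summit lay nearer to another 5′ end than to that of snr-4, at −58 bp from the 5′ end of the snRNA gene C52E4.8 (chrV:11980118-11980261, plus strand). That gene is transcribed away from snr-4, and its 5′ end lies at −395 bp from the 5′ end of snr-4. The snRNA family of C52E4.8 is not named in the annotation used. The summit also fell inside C52E4.14, an annotated non-coding RNA gene of 143 bp. It was the 1 summit of the 14 that lay inside an annotated gene.

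The next Sm gene was snr-1 (chrIV:17088049-17088946, plus strand), which encodes SmD3. Its optimal signal was 104, rank 215, at −386 bp. Replicate 1 gave a signal of about 40 (rank 199, −386 bp) and replicate 2 a signal of 63.9 (rank 224, −372 bp). Both replicates thus placed it among their strongest 250 peaks. The Sm gene snr-3 (chrII:6488830-6489761, minus strand), which encodes SmD1, had an optimal signal of 46.1, rank 753, at −225 bp. Its signal was 15.1 in replicate 1 (rank 1374) and 27.7 in replicate 2 (rank 936).

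The other 4 Sm genes had weak peaks or none. For snr-2, which encodes SmB, the pooled list gave a signal of 12.6 (rank 8049, −308 bp), with ranks 14909 in replicate 1 and 8352 in replicate 2. For snr-6 (SmE) the pooled signal was 11.3 (rank 9225) and for snr-7 (SmG) 7.80 (rank 14123), and neither was in the replicate 1 list. For snr-5 (SmF) the only summit was a replicate 1 peak of signal 2.58 at rank 16994, near the bottom of that list. The 7 subunits of this single ring thus ran from rank 17 of the pooled list to no peak in that list.

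The LSM genes, whose products form the related ring on U6 snRNA or, with lsm-1, the cytoplasmic one, had 2 optimal summits among 7 genes. For lsm-1 (chrII:11126950-11127528, plus strand) the signal was 41.2, rank 955, at −344 bp, with rank 1150 in replicate 1 and rank 2670 in replicate 2. For lsm-7 (chrIV:10933502-10934189, plus strand), whose product is shared by both rings, the signal was 40.7, rank 976, at −248 bp, with ranks 1398 and 1434 in replicates 1 and 2. The 2 genes had near-equal pooled signal, and only lsm-7 stood within the strongest 1781 peaks of both replicates. Of the other LSM genes, lsm-5 had the strongest pooled peak (18.9, rank 4571, −475 bp), followed by lsm-6 (12.9, rank 7869), lsm-8 (6.07, rank 18252) and lsm-4 (5.53, rank 19902). The lsm-4 peak was stronger in replicate 1, at rank 2661, and was not in the replicate 2 list. No list had a summit at lsm-3.

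Genes for proteins of the U2 snRNP and of branch site and 3′ splice site recognition came next. For sap-140 (chrIII:7499738-7503241, plus strand), which encodes a SURP-domain U2-associated protein, the optimal signal was 52.0, rank 598, at −84 bp. Its signal was 15.2 in replicate 1 (rank 1334) and 35.7 in replicate 2 (rank 560). For prp-9 (chrII:8523494-8525396, minus strand), named after a yeast SF3a subunit, the optimal signal was 33.1, rank 1554. The replicate summits lay farthest apart at prp-9: the replicate 2 peak had rank 886 at −157 bp, and the replicate 1 peak had rank 8852 at −340 bp, 183 bp away. The small subunit of the U2 auxiliary factor, U2AF, is encoded by uaf-2 (chrIV:17116771-17118767, minus strand). Its summit lay closest of all to its own 5′ end, at −19 bp, with an optimal signal of 35.2 (rank 1365), rank 4429 in replicate 1 and rank 676 in replicate 2. Its partner gene uaf-1, for the large subunit, had no summit within 500 bp in any of the 4 lists, so the U2AF heterodimer was split between a gene with a peak and one without. Of the rest, prp-21, another SF3a-type gene, had a pooled peak of 16.0 (rank 5856), found in both replicates, and sap-49, for an SF3b subunit, had one of 6.02 (rank 18399), found in neither.

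Among genes for U1 snRNP and related RNA-binding proteins, prp-40 (chrIII:9522075-9525454, plus strand), for a U1-associated factor, stood behind only snr-4 and snr-1 among the 14. Its optimal signal was 65.9, rank 407, at −199 bp, with 20.8 in replicate 1 (rank 664) and 33.9 in replicate 2 (rank 612), and with replicate summits 6 bp apart. The gene rnp-2 (chrIV:4172076-4174016, plus strand), for an RNA-binding protein of the U1 and U2 snRNP family, had the weakest of the 14 summits, 31.5 at rank 1729, with ranks 8391 in replicate 1 and 1526 in replicate 2. Its neighbour rnp-3, of the same protein family, had no summit of its own. For rnp-6 (chrI:3539553-3546910, minus strand), which encodes a poly(U)-binding splicing factor, the optimal signal was 32.8, rank 1583, and replicate 1 gave 12.8 at rank 1941. The rnp-6 summit was the 1 of the 14 with no replicate 2 counterpart within 500 bp of the 5′ end, although its pooled signal passed the authors' filter. The U1-70K gene rnp-7 had only a replicate 1 peak, of signal 3.73 at rank 11811.

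For the tri-snRNP and the catalytic steps, 3 prp- genes had optimal summits. The gene prp-8 (chrIII:8164373-8172710, plus strand) encodes the large protein at the spliceosome's active site. Its optimal signal was 46.9, rank 723, at −310 bp, with 12.6 in replicate 1 (rank 2003) and 29.5 in replicate 2 (rank 835). For prp-31 (chrI:5127828-5129611, plus strand), of the U4/U6 particle, the signal was 41.5, rank 935, at −189 bp, with ranks 1559 and 1135 in replicates 1 and 2. For prp-18 (chrIV:9882093-9884383, minus strand), a second-step factor, it was 40.4, rank 996, at −75 bp, with ranks 1270 and 1028 in replicates 1 and 2. All 3 genes stood among the strongest 1000 pooled peaks. Other genes of these steps had no optimal summit: prp-6 had a pooled peak of 10 (rank 10671) downstream of its 5′ end, at 316 bp, prp-4 one of 5.68 (rank 19396), and prp-3, prp-17, prp-19 and prp-38 had none in any list. The 10 strongest pooled peaks among the genes without an optimal summit also include rnp-5 (14, rank 7071) and rnp-8 (9.76, rank 10976). The gene prp-39, for a U1-associated factor, had only a replicate 2 peak, of signal 3.45 at rank 24121, and rnp-1, rnp-4 and rnp-9 had none in any list.

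**Figure D1:**
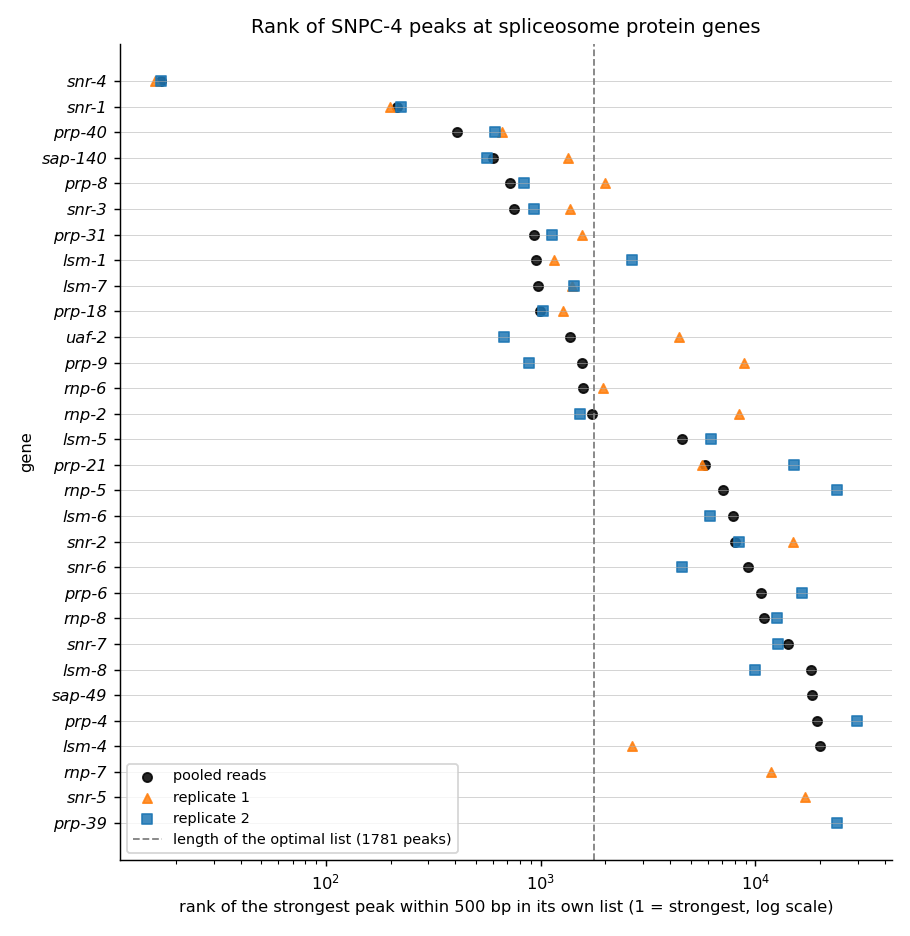
Rank of the strongest summit within 500 bp of the 5′ end for each spliceosome protein gene in the pooled list and in the lists of replicates 1 and 2, on a log axis on which rank 1 is the strongest peak; genes with no summit in a list have no point there, the 10 genes in no list are not drawn, and the dashed line marks the length of the optimal list. The 14 genes with an optimal summit span ranks 17 to 1729 of the pooled list, and the nearest of the others, lsm-5, stands at rank 4571.

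The peaks at the 14 genes were of ordinary strength for this list. Their median optimal signal was 41.3, against 44.5 at the 1118 other protein-coding genes with an optimal summit. Their median rank was 945, and only snr-4 and snr-1 ranked above 250. The share of genes with a peak was above that of other genes at each list length counted. With the pooled list kept to its 250 strongest peaks, 2 spliceosome genes (5.0%) had a summit against 0.572% of other genes. With 1000 peaks it was 10 (25%) against 3.42%, and with 5000 peaks 15 (37.5%) against 11.2%. At 20000 peaks it was 27 (67.5%) against 27.6%, and the full pooled list added no further gene. The gain between the 1781 strongest and the 5000 strongest pooled peaks was thus a single gene, lsm-5, and most of the later gain came at ranks beyond 5000.

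**Figure D2:**
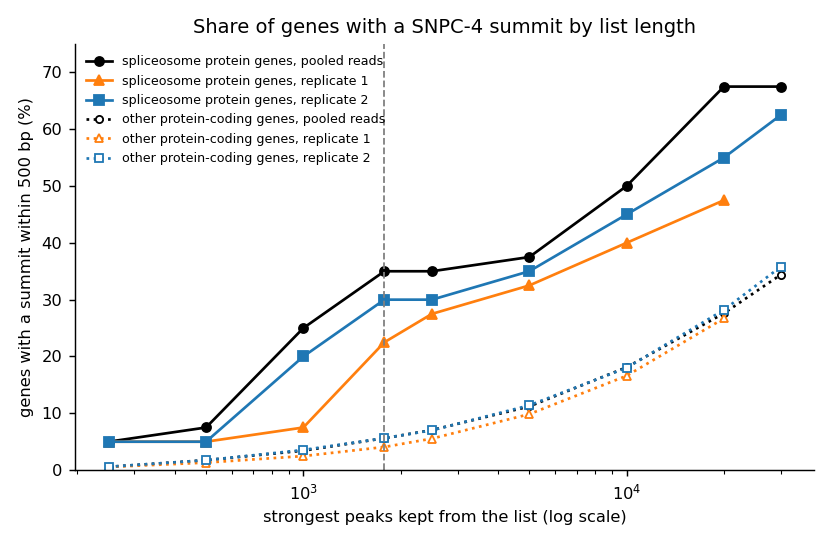
Percent of genes with a summit within 500 bp of the 5′ end, on the y axis, against the number of strongest peaks kept in the list, on a log x axis, for the 40 spliceosome protein genes and for the 19933 other protein-coding genes in the pooled, replicate 1 and replicate 2 lists. The spliceosome curve lies above the other curve at each length plotted, at 35.0% against 5.61% for the 1781 strongest pooled peaks.

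In the relaxed lists the share was also higher among spliceosome genes, by a smaller ratio. The pooled relaxed list had a summit at 27 of 40 genes (67.5%), with a background of 34.5%. Replicate 1 had 19 (47.5%; background 27.5%) and replicate 2 had 25 (62.5%; background 35.9%). The 2 replicates' lists both held 15 of them (37.5%; background 19.4%). The relaxed lists reach far into weak peaks: of the pooled peaks, 47.4% had a q of 0.05 or lower by the authors' caller. With pooled peaks kept to that q, 23 genes remained listed (57.5%; background 22.6%). The genes dropped were lsm-4, lsm-8, prp-4 and sap-49, with −log10 q of 0.60, 0.75, 0.64 and 0.74. The 13 genes that had a pooled peak but no optimal one stood at ranks 4571 to 19902, with signal from 5.53 to 18.9. None of the 26 genes without an optimal summit was among the strongest 1781 peaks of either replicate, and 10 of them had no summit in any list. These counts are given for the spliceosome genes only.

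The replicates gave the same position for most of the 14 genes. The optimal list was called on the pooled reads of both replicates and passed a reproducibility filter, so agreement at its peaks was partly built in. The position counts are given for the spliceosome genes only and do not set them apart from other genes with an optimal summit. Of these, 13 had a summit in both relaxed lists, the exception being rnp-6, and in all 13 the 2 replicate summits lay within 200 bp of each other. In 12 they lay within 50 bp, prp-9 being the exception, and the median distance was 22.0 bp over a range of 6 to 183 bp. Among the genes without an optimal summit, 2 were in both relaxed lists (prp-21 and snr-2), 3 in replicate 1 alone and 10 in replicate 2 alone. No share over other genes was counted for this, so it does not set these genes apart. The replicate 2 list is also longer, with 30000 peaks against 20730. With each replicate's list kept to its 1781 strongest peaks, 9 spliceosome genes had a summit in replicate 1 (22.5%; background 4.11%) and 12 in replicate 2 (30.0%; background 5.68%). The 8 in both were snr-1, snr-3, snr-4, prp-18, prp-31, prp-40, sap-140 and lsm-7 (20%; background 2.82%). The genes prp-8, prp-9, rnp-2 and uaf-2 reached that length in replicate 2 alone, lsm-1 in replicate 1 alone, and rnp-6 in neither.

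The summits of the 14 genes lay upstream of the gene. All 14 optimal summits were upstream of the annotated 5′ end, with a background of 5.20% of protein-coding genes having an upstream summit. Among other genes with an optimal summit, 91.6% had it upstream (1024 of 1118). The median offset was −194 bp over a range of −386 to −19 bp, against a median of −188 bp at the other genes, so the distance itself was much the same. Of the 14 summits, 13 lay inside no annotated gene, against 78.9% of the summits at the other genes. For the 40 genes the 500 bp limit did not fall among crowded values: none had its nearest optimal summit between 400 and 600 bp. The farthest inside was snr-1 at −386 bp, and the nearest outside were prp-19 at −653 bp and lsm-3 at −947 bp.

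The share of genes with an optimal summit varied with the gene arrangement upstream, here and over all protein-coding genes. A divergent neighbour is a protein-coding gene on the opposite strand whose 5′ end lies within 1000 bp upstream, so that both genes start from 1 shared stretch of DNA. Genes with a divergent neighbour and no same-strand gene close upstream were 21 of the 40 here and 3496 of all 19973 protein-coding genes. Of the 21 spliceosome genes with a divergent neighbour, 13 (61.9%) had an optimal summit, with a background of 17.8% for genes so arranged. Of the 8 with neither a divergent neighbour nor a same-strand gene close upstream, 1 had a summit (12.5%; background 3.00%), namely snr-4. Of the 11 genes whose nearest upstream neighbour was a same-strand gene ending within 500 bp, none had a summit (background 3.41%). That background is low, so this count does not set the 11 genes apart. Without those 11, the share was 14 of 29 (48.3%; background 6.19%).

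**Figure D3:**
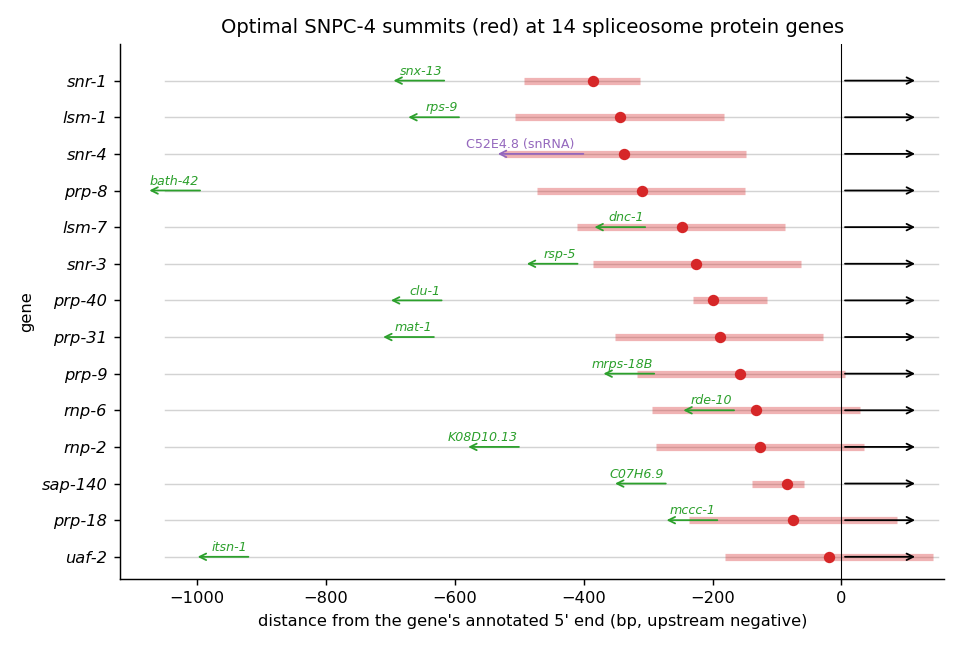
Summit positions at the 14 spliceosome protein genes with an optimal summit, in bp from each gene's 5′ end at 0 on the x axis. Points are summits, pale bars the peaks, and arrows mark a 5′ end and its direction but not gene length, for the gene itself (black) and for the divergent protein-coding gene (green), or at snr-4 for the snRNA gene. All 13 summits at divergent pairs lie between both 5′ ends, from −386 to −19 bp.

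At all 13 divergent pairs the summit lay between the 5′ ends of both genes. The nearest 5′ end was the spliceosome gene's own at prp-8, prp-18, prp-31, prp-40, rnp-2, sap-140 and uaf-2. It was the divergent gene's at lsm-1, lsm-7, prp-9, rnp-6, snr-1 and snr-3. At lsm-7 the summit had an offset of −248 bp from the spliceosome gene and of −51 bp from dnc-1. At rnp-6 it had an offset of −133 bp from the spliceosome gene and of −28 bp from rde-10. The peak lists alone therefore do not assign these peaks to either gene. The neighbour of snr-3 is rsp-5, an SR protein gene whose 5′ end lies at −404 bp, so 1 peak is counted at both splicing genes. The neighbour of lsm-1 is rps-9, a ribosomal protein gene, and that of prp-9 is mrps-18B, a mitochondrial ribosomal protein gene. The remaining neighbours were bath-42 at prp-8, mccc-1 at prp-18, mat-1 at prp-31, clu-1 at prp-40, K08D10.13 at rnp-2, C07H6.9 at sap-140, snx-13 at snr-1 and itsn-1 at uaf-2.

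A divergent neighbour was not by itself accompanied by a peak: 8 of the 26 genes without an optimal summit had one too (prp-4, prp-17, prp-19, prp-21, rnp-5, snr-2, snr-6 and snr-7). At 1 of these 8 the neighbour did have an optimal summit. This was K10D2.5, divergent from prp-19, which encodes the core subunit of the Prp19 complex. Its peak had a signal of 70.1 (rank 366), with 13.3 in replicate 1 and 59.9 in replicate 2, and lay at −653 bp from prp-19 and at −22 bp from K10D2.5.

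Many C. elegans genes are transcribed together from an upstream promoter as operons, and the 11 genes with a same-strand gene close upstream were therefore looked up at the first gene of their run. A run was counted as successive same-strand genes, each ending within 500 bp of the next, which is a rule of distance and not an annotation of operons. This comparison was chosen after the values were seen. Of the 11, 7 had an optimal summit within 500 bp of the first gene's 5′ end (63.6%), with a background of 13.4% for all protein-coding genes with such an upstream neighbour. All 7 first genes had a summit in both replicates' relaxed lists, which the filter behind the optimal list favours.

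The 7 pairs were rnp-3 behind rnp-2 (signal 31.5), prp-38 behind plrg-1 (37.8), rnp-7 behind syf-2 (42.8), prp-39 behind hmgs-1 (33.3), lsm-8 behind sqd-1 (83.3), lsm-3 behind Y62E10A.23 (47.6) and sap-49 behind ubh-4 (39.1). In 3 of them the first gene is itself a splicing gene: rnp-2 is among the 40, and plrg-1 and syf-2 encode proteins of the catalytic spliceosome. The first genes at lsm-5, lsm-6, prp-3 and rnp-4 had no optimal summit. With own or first 5′ ends counted, 21 of the 40 spliceosome genes had an optimal summit (52.5%), at 20 distinct peaks, since rnp-2 and rnp-3 share 1. With each gene counted only at the first 5′ end of its run, the count was also 21, with a background of 7.53%. That 5′ end is the gene's own where no same-strand gene lies close upstream. Summits at the own 5′ end of later genes in a run are not in that background.

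**Figure D4:**
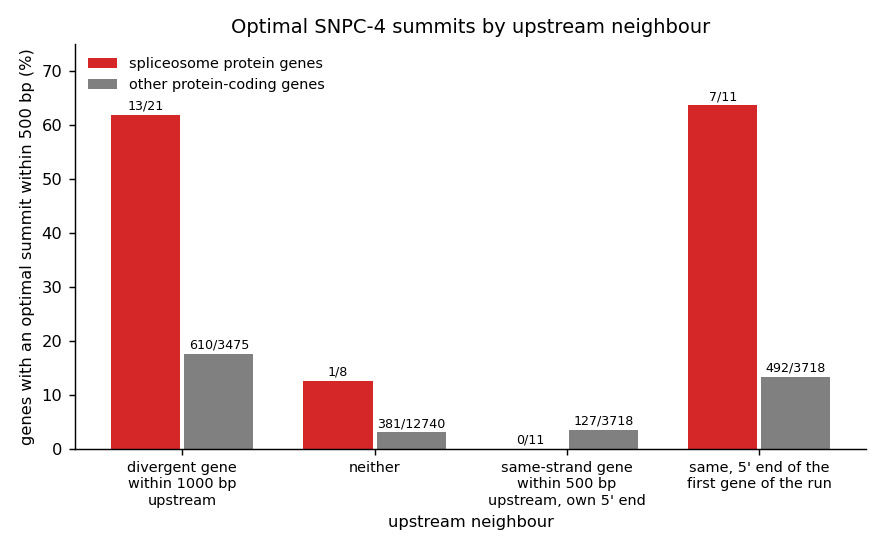
Percent of genes with an optimal summit within 500 bp by upstream arrangement, for spliceosome protein genes (red) beside other protein-coding genes (grey), with counts above the bars: a divergent gene within 1000 bp, neither, a same-strand gene within 500 bp upstream, and the last class counted at the first gene of the run. The spliceosome shares are 61.9%, 12.5%, 0% and 63.6%, beside 17.6%, 2.99%, 3.42% and 13.2% for the other protein-coding genes.

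Small RNA genes, some classes of which are known sites of SNAPc, were near the spliceosome genes about as often as near other genes. Counting snRNA, snoRNA, tRNA, spliced leader, rRNA, miRNA and 21U-RNA genes with a 5′ end within 500 bp, 2 of the 40 genes had one (5.0%), against 4.66% of other protein-coding genes. Both had an optimal summit, 2 of 14 (14.3%) against 10.5% of other genes with a summit. They were snr-4, with C52E4.8 and also the 21U-RNA gene 21ur-10927, and prp-18, with 21ur-13999. At prp-18 the summit lay at −75 bp from prp-18 and 199 bp downstream of the 5′ end of 21ur-13999, so it was nearer to the protein-coding gene. A non-coding RNA gene of none of these classes, C07A4.9, lies beside rnp-9, which had no summit in any list. Without the snr-4 peak, 13 of the 40 genes had an optimal summit.

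The 8-base words were learned at SNPC-4 summits of other genes and then looked up here. At 735 optimal summits of other protein-coding genes, the 4 words chosen within 100 bp of the summit were GAGACGCA, AAACGCGC, GCAAACAC and GCGAGACC, each searched on both strands. The first and last share the letters GAGAC and can overlap in sequence. They stood at 12.7%, 11.2%, 10.7% and 10.3% of those summits, and at 0.680%, 0.272%, 0.884% and 0.680% of points 1000 bp to each side. In the 300 bp promoters of all protein-coding genes, from 250 bp before to 50 bp after the 5′ end, they stood in 3.32%, 1.44%, 2.40% and 1.32%. At least 1 of the 4 stood at 40.0% of the summits they were learned from, a share raised by that choice, and in 8.12% of all promoters.

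At the spliceosome genes, 7 of the 14 summits had at least 1 of the 4 words within 100 bp (50%). The 7 genes were snr-1, snr-3, lsm-7, prp-18, prp-31, sap-140 and uaf-2. Of the 28 points 1000 bp to each side, 0 had a word, against 2.52% of such points around the summits the words were learned from. That share is low, so 0 of 28 does not set these genes apart. A low flank share was also a condition of the word choice. AAACGCGC was at 4 of the 7 summits (snr-1, lsm-7, sap-140 and uaf-2), GCAAACAC at 3 (lsm-7, prp-18 and prp-31), GAGACGCA at 2 (snr-1 and prp-18) and GCGAGACC at 1 (snr-3). In the sequences printed above, the copies at snr-1, lsm-7, sap-140, prp-18 and snr-3 nearest to the summit had their centres between −4.50 and 11.5 bp from it, positive towards the gene. The uaf-2 copy was centred at −26.5 bp. TGCGTCTC, GCGCGTTT and GTGTTTGC in the printed lines are GAGACGCA, AAACGCGC and GCAAACAC read on the other strand. Over the promoters of all 40 genes, whether or not they had a peak, 7 held a word (17.5%). No copy of these letters lay within 100 bp of the summits at snr-4, prp-8, prp-9, prp-40, rnp-2, rnp-6 and lsm-1.

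A second set of words came from 162 summits at snRNA, spliced leader and snoRNA genes: CGGAACCC, AAACCCGC, GGCCGACA and TCGGTACA. At least 1 of these stood at 48.1% of the summits they were learned from. They stood at 0 of the 14 spliceosome summits, the one beside the snRNA gene at snr-4 included, and in 1.47% of all protein-coding promoters. Word matches are a description of the letters in these windows only.

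By chromosome, 5 of the 8 spliceosome genes on chromosome IV had an optimal summit, beside 8.99% of all protein-coding genes there, and 3 of 6 on chromosome II (5.39%). The counts were 3 of 11 on chromosome III (7.01%), 2 of 8 on chromosome I (6.67%), 1 of 6 on chromosome V (3.82%) and 0 of 1 on the X (3.04%). Summits were thus found on all 5 autosomes.

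Splicing genes under other symbols were counted from 5 lists, of which 79 of 87 symbols matched the annotation. Of the 79, 21 (26.6%) had an optimal summit within 500 bp, at 20 distinct peaks, with the same background of 5.67%. The share varied between the lists. Among genes for SR, hnRNP and other RNA-binding proteins, which bind pre-mRNA and steer splice site choice, it was 8 of 22 (36.4%). These were rsp-1, rsp-2, rsp-5, rsp-6, rsp-7, hrpa-1, tiar-1 and hrpk-1. Of them, rsp-1 and rsp-2 share a single peak (signal 73.8) and hrpk-1 had the strongest (76.7). Among Prp19 complex and catalytic step factors it was 6 of 20 (30.0%): plrg-1, isy-1, ccdc-12, mog-4, ddx-15 and syf-2. In the list of further tri-snRNP genes it was 4 of 14 (28.6%): rsr-1 (62.9), snrp-40.1 (54.5), usp-39 (44.5) and smu-2 (34.9). Of these, rsr-1 encodes an SR-related protein and is not an established tri-snRNP gene. The list for snRNP assembly and the cap had 2 of 12 (16.7%), sna-2 and sna-3. Its genes smn-1, smi-1, prmt-5, tgs-1, ncbp-1 and ncbp-2 had no optimal summit, and sna-2 encodes a spliced leader snRNP protein. Further U1 and U2 protein genes had 1 of 11 (9.09%), sftb-1. The last list thus had the share closest to the background. In these lists some optimal summits lay close to the 500 bp limit: rsr-1 at −496 bp, sftb-1 at −457 bp and syf-2 at −423 bp. A same-strand gene close upstream did not preclude a summit in these lists: isy-1 (44.0), rsp-6 (60.2), tiar-1 (48.4) and hrpk-1 have one and had an optimal summit.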

How the data were processed

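The deposited files are peak lists in narrowPeak order on the ce11 build, per the labels and the files deposited with them, from pooled reads and from each replicate. The authors' values used were the signal value of the peak caller, its deposited −log10 q value and the summit position. The aligner, the peak caller and the threshold of the reproducibility filter are not given in the sources used here, and lists on ce10 and the control library were not used here. Read depth is unknown, so no interval based on reads is given. Genes came from the Ensembl release 115 annotation of WBcel235, which is ce11, and bases from the RefSeq genome. The strongest summit within 500 bp of each gene's 5′ end was taken in each of the 4 lists. The 8-base words were picked in turn by the share of summits holding the word and no earlier one, less its flank share. Each word also had to stand at summits at 5 or more times its flank share. Named genes were those with an optimal summit, the 10 next in the pooled list, those near 500 bp or near a small RNA gene, and all snr- and uaf- genes. The genes and lists were chosen with earlier results of these data known. Scripts ran in Python 3.11.15 with pandas 2.3.3 and numpy 2.4.6, and were tested on simulated data. Unmatched list symbols were sfa-3, sftb-3, sftb-4, sftb-5, snrp-70, nhpl-2, ctnl-1 and gmn-2.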

Additional observations from a re-analysis of the deposited data

How the results depend on the processing

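The count of 14 spliceosome genes with an optimal summit was 10 within 300 bp (background 4.32%), 16 within 1000 bp (7.28%), 14 with the 5′ ends of all transcripts (6.02%), 14 with any overlap of the peak (6.15%), and 12 of 31 without rnp- genes (5.67% as in the main count). It was 5 within 150 bp (background 1.96%), 6 with the stronger 50% of the optimal list (3.10%) and 8 with peaks matched in both replicates (2.81%), with 9 genes, 8 genes and 6 genes lost. Leaving out a replicate gave 9 without replicate 2 (background 4.11%), which lost prp-8, prp-9, rnp-2, rnp-6 and uaf-2, and 12 without replicate 1 (5.68%). Chosen after seeing the data, the first gene of a run gave 21 and the list without the snr-4 peak 13. The median offset of −194 bp was set against the SD of the 2 replicates' medians, 14.8 bp. Those medians came from the relaxed lists, −237 bp over 19 genes and −216 bp over 25, so the SD is a rough yardstick. The median moved by more than that to −84.0 bp within 150 bp, −145 bp within 300 bp and −212 bp within 1000 bp. It also moved by more to −268 bp with the stronger 50% of the list, −212 bp with matched peaks and −212 bp without rnp- genes. The windows themselves bound the median. The median also moved by more than the SD without replicate 2, to −232 bp. Without replicate 1 it was −190.0 bp, a move smaller than the SD. No paired analysis was possible because the labels give 1 group. The 500 bp rule counts a gene beside a peak, which may belong to the divergent gene or an snRNA gene, and the lists hold no control or expression values.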

Other observations

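The spliceosome genes of chromosome IV, the chromosome with most 21U-RNA genes, differed in how many annotated 21U-RNA genes lie within 50000 bp of their 5′ end. There were 100 around snr-1 and 76 around uaf-2. Among the 6 others, lsm-8 had 31, lsm-3 had 4, lsm-7 and prp-18 had 2 each, and rnp-2 and rnp-3 had 0. Optimal summits were at snr-1 and uaf-2, and also at lsm-7, prp-18 and rnp-2. The nearest 21U-RNA 5′ end lay 9928 bp from snr-1, 10887 bp from uaf-2 and 274 bp from prp-18. What part the 21U-RNA genes have in these counts was not tested.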
